A study of Mus musculus with 18 samples.

Results

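Oocyte-free cumulus complexes cultured together with oocytes were set against intact cumulus-oocyte complexes, to see which transcripts the added oocytes left different from those of cumulus cells whose own oocyte was still in place. The comparison used 12 of the 18 arrays of the series, chosen by their titles. The intact complexes ('COC', 3 arrays) and the cocultures ('OOX + Oocytes', 3 arrays) were cultured without estrogen. The same complexes with estrogen ('E2 COC' and 'E2 OOX + Oocytes', 3 arrays each) made up the other 6 arrays, so that 6 cocultures stood against 6 intact complexes with estrogen as a term in the fit. The remaining culture type of the study, oocyte-free complexes alone ('OOX' and 'E2 OOX', 3 arrays each), is given beside the results. All samples were cumulus cells of female mice, taken from complexes of antral follicles. Every one of the 12 samples had been cultured, so none of them shows the uncultured state. Mouse strain, age, estrogen dose, culture time and the number and placement of the added oocytes are not given in the sources used here. The labels do not say whether the 3 arrays of each group stand for different animals or different cultures. The p-values therefore describe how far these samples spread, and that spread may be technical.

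Cumulus cells are the granulosa cells that enclose the oocyte of an antral follicle. Fine projections of the cumulus cells cross the zona pellucida and form gap junctions with the oocyte, through which small molecules pass. The oocyte also secretes growth factors of the transforming growth factor beta family, among them GDF9 and BMP15, which act on the surrounding cells from outside. Under this influence cumulus cells take up amino acids, run glycolysis, make cholesterol and divide, and they pass some of the products to the oocyte, which is poor in several of these pathways itself. Estrogen is made in the follicle by granulosa cells and acts on cumulus cells through its nuclear receptors.

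Expression was measured on Affymetrix mouse genome arrays from 20 ng of total RNA after 2 rounds of amplification, per the labels' protocols, and the deposited values are log2 signals. The difference between the 3' and 5' control probe sets of Gapdh and Actb, a measure of RNA length, had a median of 1.54 (1.34 to 2.12) in cocultures and 1.62 (1.51 to 1.78) in intact complexes, so that these arms overlapped. It was higher in oocyte-free complexes, at 2.84 (1.83 to 3.13). Coculture replicate 2 without estrogen was the array of highest difference among the 12, and the labels' array names put it in another array series than the other 11. The spread of triplicates, as the median SD over genes, was 0.20 for cocultures against 0.16 for intact complexes in the absence of estrogen and 0.17 against 0.15 in its presence. All intact complexes were in the first array series and no oocyte-free array without estrogen was, so that for the latter the series and the missing oocyte cannot be told apart. Levels of different genes cannot be compared on these arrays, and in such bulk samples fewer cells of a type and less RNA per cell cannot be told apart.

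Few transcripts separated cocultures from intact complexes. Of 12252 genes tested, 16 were called at an adjusted p under 0.05 (0.131%), 10 of them higher in cocultures (0.0816%) and 6 lower (0.049%). At an unadjusted p under 0.05 there were 1397 genes (11.4%), 796 higher (6.5%) and 601 lower (4.91%). The differences were small: the median size was 0.10 on the log2 scale, 4 genes lay above 1 and 1 lay below -1. For 60 genes (0.49%) the 6 cocultures did not overlap the 6 intact complexes, 23 higher (0.188%) and 37 lower (0.302%). In a fit of all 18 arrays, oocyte-free complexes differed from intact complexes in 5859 genes (47.8%), 2712 higher (22.1%) and 3147 lower (25.7%), and that fit called 7 genes between cocultures and intact complexes (6 higher, 1 lower). Both comparisons use the same intact arrays and are given side by side only.

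The count of 16 moved with the arrays included. It was 2 without replicate 1 of any of the 4 groups, and also 2 without replicate 3 of intact complexes or cocultures with estrogen. It was 3 without replicate 2 of intact complexes with estrogen or without replicate 3 of intact complexes without it. It was 9 without coculture replicate 3, 10 without intact replicate 2, 12 without coculture replicate 2 with estrogen and 30 (22 higher, 8 lower) without coculture replicate 2 without estrogen, which leaves the 11 arrays of a single array series. Without both cocultures of highest 3' to 5' difference it was 94 (51 higher, 43 lower). Btbd3 and Tmem170 were called whichever array was left out, and each of the other 14 genes in 1 to 5 of the 12 fits.

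**Figure D1:**
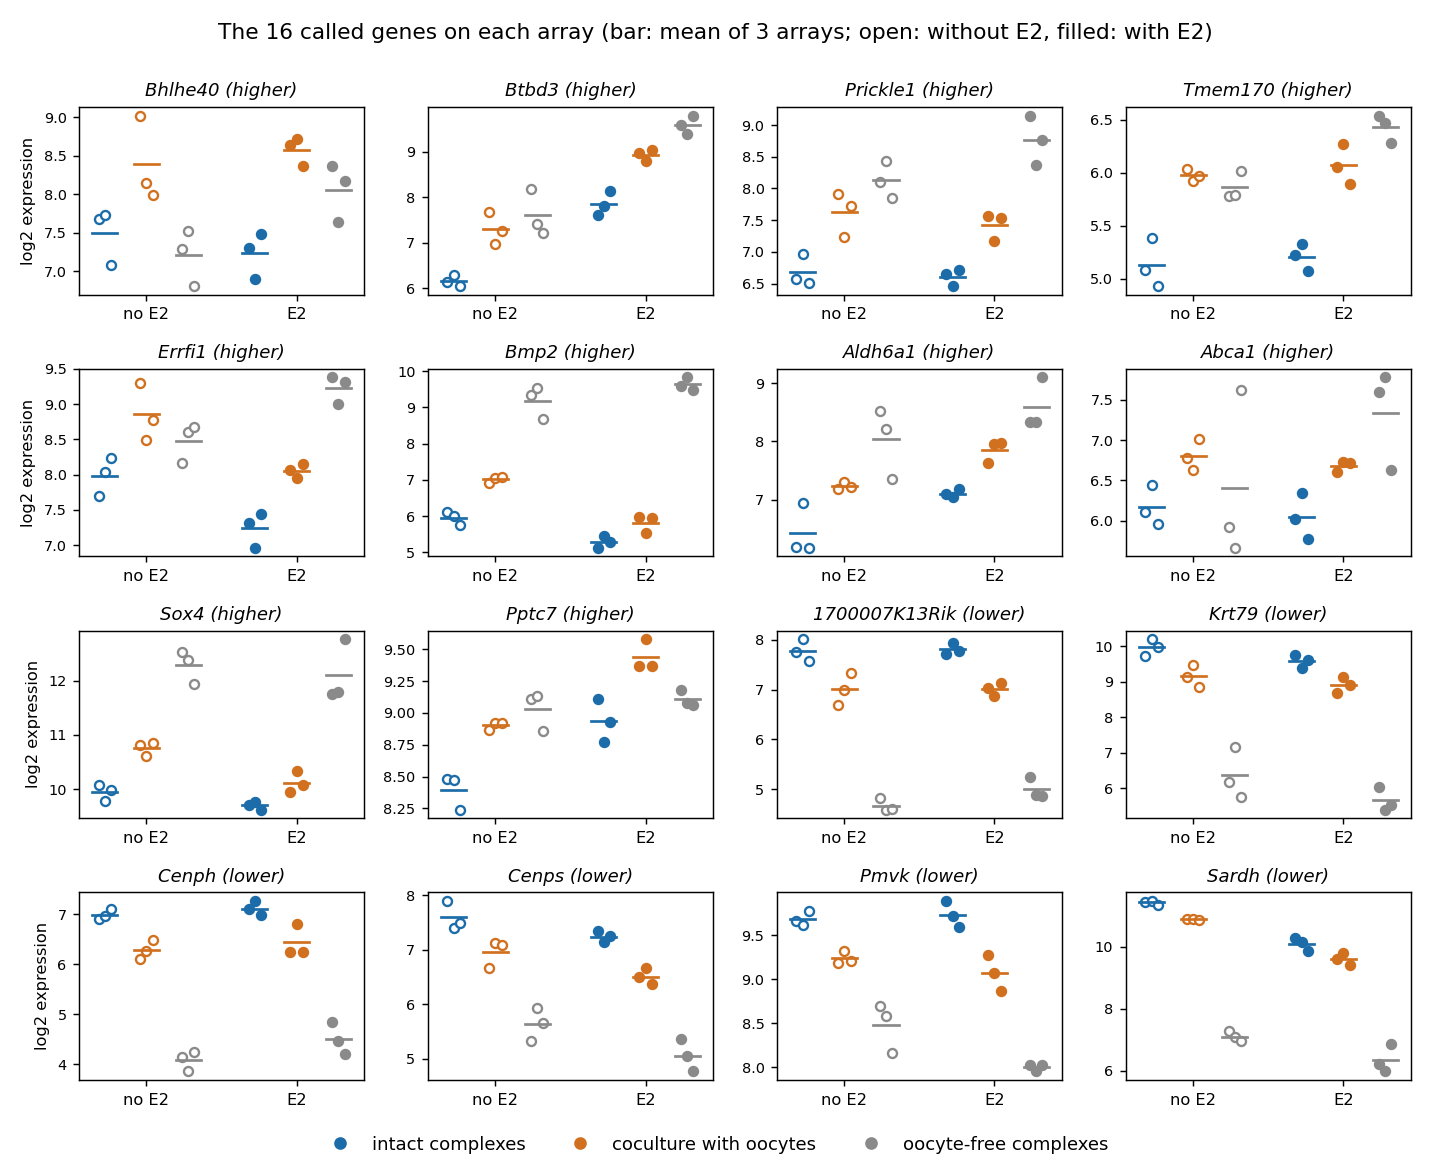
Log2 expression (vertical axes, each with its own range) of the 16 called genes on every array, with intact complexes in blue, cocultures in orange and oocyte-free complexes in grey, open without and filled with estrogen (E2); bars are means of 3 arrays. In each panel the 3 cocultures lie clear of the 3 intact complexes in both estrogen states, as for Tmem170 with 5.92 to 6.04 against 4.93 to 5.38 without estrogen.

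For all 16 called genes the 3 cocultures stood apart from the 3 intact complexes in both estrogen states, as they did for 217 of all tested genes (1.77%). For 9 of the 16 the 6 cocultures stood apart from the 6 intact complexes, as for 60 of all tested genes (0.49%). The genes were called on these same arrays, so the call itself favours such separation. The 10 genes that rose in cocultures encode a signal, a feedback inhibitor, transcription factors, a polarity protein, a lipid exporter and mitochondrial enzymes. Btbd3, a BTB domain protein gene known from the orientation of neuronal dendrites, read 6.14, 6.30 and 6.05 in intact complexes and 7.68, 6.97 and 7.25 in cocultures without estrogen. With estrogen it read 7.60, 7.81 and 8.14 in intact complexes and 8.97, 8.80 and 9.03 in cocultures. Cocultures were higher in both states, but over the 6 arrays of each arm the ranges overlapped, since levels were higher with estrogen in both culture types. The difference was 1.11 ± 0.124 on the log2 scale (SE, 6 against 6 arrays, adjusted p = 0.00268). Its other probe sets showed 0.65 and, for a dim one, 0.07.

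Bhlhe40, a transcriptional repressor tied to the circadian clock and to low oxygen, read 7.68, 7.73 and 7.09 in intact complexes against 9.02, 8.15 and 7.99 in cocultures without estrogen. With estrogen it read 7.31, 6.90 and 7.49 against 8.64, 8.71 and 8.36. No coculture overlapped an intact complex, and the difference was 1.11 ± 0.185 (adjusted p = 0.0337). Oocyte-free complexes differed from intact ones by 0.27 (adjusted p = 0.28), and the mean of the cocultures was the highest of the 3 culture types both without estrogen (8.39, against 7.50 in intact and 7.21 in oocyte-free complexes) and with it (8.57, against 7.23 and 8.06).

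Bmp2, a bone morphogenetic protein ligand, read 6.10, 5.99 and 5.76 in intact complexes and 6.90, 7.05 and 7.08 in cocultures without estrogen. With estrogen the values were 5.12, 5.46 and 5.29 against 5.98, 5.53 and 5.95. The arms stood apart in each state, by 1.06 without and 0.53 with estrogen, and by 0.80 ± 0.124 over both (adjusted p = 0.0337). Oocyte-free complexes lay 3.79 above intact complexes, so that the cocultures lay nearer to the intact complexes. Sox4, a transcription factor of the SRY-related family, was higher by 0.62 ± 0.105 in cocultures (adjusted p = 0.0337) and by 2.38 in oocyte-free complexes. Of the other probe sets of Sox4, the 3 brightest gave 0.53 to 0.61.

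Prickle1, a core component of planar cell polarity, rose by 0.88 ± 0.128 (adjusted p = 0.0246), with 7.17 to 7.92 in the 6 cocultures and 6.46 to 6.96 in the 6 intact complexes. Errfi1, a feedback inhibitor of the epidermal growth factor receptor, rose by 0.84 ± 0.139 (adjusted p = 0.0337), with 8.49 to 9.30 against 7.69 to 8.23 without and 7.95 to 8.15 against 6.96 to 7.44 with estrogen. Oocyte-free complexes lay above intact ones by 1.80 for Prickle1 and 1.24 for Errfi1. Tmem170, a membrane protein gene, rose by 0.86 ± 0.097 (adjusted p = 0.00268), and here oocyte-free complexes lay 0.98 above intact ones, close to the coculture difference. Its second probe set, of similar brightness, showed 0.02, and with the mean of its probe sets the gene was not called (0.44, adjusted p = 0.0578). The other probe sets of Prickle1 showed 0.04 and -0.05 and that of Errfi1 0.13, all of them dimmer.

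The remaining genes that rose act in metabolism. Aldh6a1, a mitochondrial dehydrogenase of valine breakdown, rose by 0.78 ± 0.126 (adjusted p = 0.0337), and its 6 cocultures (7.19 to 7.97) stood above the 6 intact complexes (6.17 to 7.18). Abca1, which exports cholesterol from cells, rose by 0.64 ± 0.114 (adjusted p = 0.0491), at 6.6 to 7.01 against 5.77 to 6.44. Its dimmer probe sets showed 0.17 and -0.02. Pptc7, a phosphatase of mitochondria, rose by 0.51 ± 0.085 (adjusted p = 0.0337). Oocyte-free complexes lay 1.54, 0.76 and 0.40 above intact ones for Aldh6a1, Abca1 and Pptc7. Next below the threshold came Selenop, the selenium carrier selenoprotein P (0.53, adjusted p = 0.0591), and Pik3ip1, an inhibitor of phosphoinositide 3-kinase (0.63, adjusted p = 0.0668), neither of which was called.

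The 6 genes that fell in cocultures include 2 of the centromere, 1 of sterol synthesis, a keratin and a mitochondrial dehydrogenase. Cenph, a protein of the inner kinetochore, read 6.90, 6.97 and 7.10 in intact complexes and 6.10, 6.26 and 6.48 in cocultures without estrogen, and 7.10, 7.27 and 6.98 against 6.25, 6.81 and 6.25 with it. All 6 cocultures lay below all 6 intact complexes, and the difference was -0.70 ± 0.112 (adjusted p = 0.0337). Cenps, a histone-fold protein of the same complex that also takes part in DNA repair, lay at 6.37 to 7.12 in cocultures and 7.15 to 7.90 in intact complexes, a difference of -0.69 ± 0.111 (adjusted p = 0.0337). Oocyte-free complexes lay below intact ones by a log2 difference of -2.76 for Cenph and -2.07 for Cenps.

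Krt79, a type II keratin gene, read 9.72, 10.20 and 9.98 in intact complexes and 9.13, 9.47 and 8.85 in cocultures without estrogen, and 9.74, 9.40 and 9.61 against 8.68, 9.14 and 8.91 with it. The difference was -0.75 ± 0.126 (adjusted p = 0.0337), against -3.77 in oocyte-free complexes. Sardh, a mitochondrial enzyme that converts sarcosine to glycine, was among the genes that stood furthest from intact complexes in the oocyte-free state (-4.03), and in cocultures it differed by -0.51 ± 0.091 (adjusted p = 0.0491), with 10.87 to 10.89 against 11.35 to 11.47 without estrogen and 9.40 to 9.80 against 9.87 to 10.26 with it. Its second probe set showed -0.36. The gene 1700007K13Rik differed by -0.79 ± 0.115 in cocultures (adjusted p = 0.0246) and by -2.96 in oocyte-free complexes. Lower genes that missed the threshold were Tm7sf2 (-0.72, adjusted p = 0.0663), Rfc4 (-0.70, adjusted p = 0.0663), the meiotic recombination gene Mnd1 (-0.59, adjusted p = 0.0741), Rfc3 (-0.63), Fdps (-0.56) and Lsm3, of the U6 splicing particle (-0.43), the last 3 with adjusted p = 0.0894.

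In the main fit, sterol synthesis was the only one of the 29 gene lists examined to hold a called gene. Of its 20 tested members, 1 was called, Pmvk, and 13 were lower at an unadjusted p under 0.05 (65%, against 4.91% of all tested genes), none higher. The list median was -0.32, against 0.01 over all tested genes, and 18 of the 20 means lay below 0 (47.3% of all tested genes did). Pmvk, phosphomevalonate kinase, read 9.66, 9.62 and 9.77 in intact complexes and 9.18, 9.32 and 9.21 in cocultures without estrogen, and 9.89, 9.72 and 9.59 against 9.28, 9.07 and 8.86 with it. The arms did not overlap and differed by -0.56 ± 0.094 (adjusted p = 0.0337). Pmvk was called in 1 of the 12 fits with 1 array left out. Without coculture replicate 3 of the state without estrogen, 0 sterol genes were called. That fit called 1 gene each on the lists of DNA replication and of ATF4 and endoplasmic reticulum stress.

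Tm7sf2, a sterol reductase gene, read 9.18 to 9.91 in intact complexes and 8.14 to 8.87 in cocultures, again without overlap. Fdps, farnesyl diphosphate synthase, lay at 9.18 to 9.76 against 8.81 to 9.19, with 1 coculture just inside the intact range, and Mvd, which makes isopentenyl diphosphate, differed by -0.51 ± 0.113 (adjusted p = 0.114). Cyp51, the lanosterol demethylase gene, differed by -0.37 ± 0.104 (adjusted p = 0.181). Among members named for their roles, Insig1, which restrains the pathway, differed by -0.24 (adjusted p = 0.425), Sqle, squalene epoxidase, by -0.01 (95% interval -0.30 to 0.29), and Srebf2, the transcription factor that drives the pathway, by 0.08 (-0.18 to 0.33). The mean level of the 20 genes was 9.07 ± 0.11 in intact complexes and 8.83 ± 0.22 in cocultures without estrogen (SD, n = 3), with overlap, and 9.52 ± 0.14 and 9.13 ± 0.02 with it, without overlap. In oocyte-free complexes it was 7.13 ± 0.35 and 7.26 ± 0.17, and the median of the members there was -2.15 against intact complexes. The count of 13 ranged from 11 to 14 when 1 array was left out, and was 11 without both cocultures of highest 3' to 5' difference.

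The promoters of the sterol synthesis list were read from RefSeq (GRCm38.p6), where 16 of the 20 tested members had an entry. The CCAAT box, bound by nuclear factor Y, was searched as CCAAT on both strands from 250 bases before to 50 after each listed start. It was present at 16 of 16 genes (100%), against 41.1% of the 27025 genes in the table. The sterol regulatory element in the form TCACNCCAC was present at 1 of 16 (6.25%, against 1.44%). Its second form, ATCACGTGA, was present at 0 of 16 (against 0.374%). These are matches of letters, not sites shown to be bound. The 16 genes with the CCAAT box include Insig1 and Srebf2, so the box does not set the lower members apart from the others. Such counts use no array value. The 250 bases before the start are given for the called gene, the lowest uncalled member, Mvd and Cyp51, at chr3:89454291-89454540 (plus strand), chr19:6067851-6068100 (minus strand), chr8:122443423-122443672 (minus strand) and chr5:4104698-4104947 (minus strand), with the CCAAT box in capitals (ATTGG where it lies on the other strand). Pmvk has 2 listed starts, of which the one with the box is shown.
Pmvk: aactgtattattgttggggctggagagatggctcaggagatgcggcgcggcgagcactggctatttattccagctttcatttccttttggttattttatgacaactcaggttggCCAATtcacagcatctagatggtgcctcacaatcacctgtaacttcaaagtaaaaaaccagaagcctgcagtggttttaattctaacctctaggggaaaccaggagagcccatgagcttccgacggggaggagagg
Tm7sf2: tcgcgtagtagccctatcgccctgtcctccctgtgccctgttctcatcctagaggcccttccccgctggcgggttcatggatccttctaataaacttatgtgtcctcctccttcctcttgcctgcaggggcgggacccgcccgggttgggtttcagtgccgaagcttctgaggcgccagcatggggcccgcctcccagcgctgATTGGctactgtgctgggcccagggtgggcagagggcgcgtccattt
Mvd: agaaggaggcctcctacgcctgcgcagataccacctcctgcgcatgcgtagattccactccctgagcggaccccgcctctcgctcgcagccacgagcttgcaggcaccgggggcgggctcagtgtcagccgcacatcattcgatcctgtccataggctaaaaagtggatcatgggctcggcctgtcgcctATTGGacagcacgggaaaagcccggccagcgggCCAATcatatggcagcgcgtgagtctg
Cyp51: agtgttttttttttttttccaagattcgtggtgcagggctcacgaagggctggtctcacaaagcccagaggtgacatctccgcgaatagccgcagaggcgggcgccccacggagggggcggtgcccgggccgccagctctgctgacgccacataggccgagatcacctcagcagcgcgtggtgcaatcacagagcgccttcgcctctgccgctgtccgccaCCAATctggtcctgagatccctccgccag

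**Figure D2:**
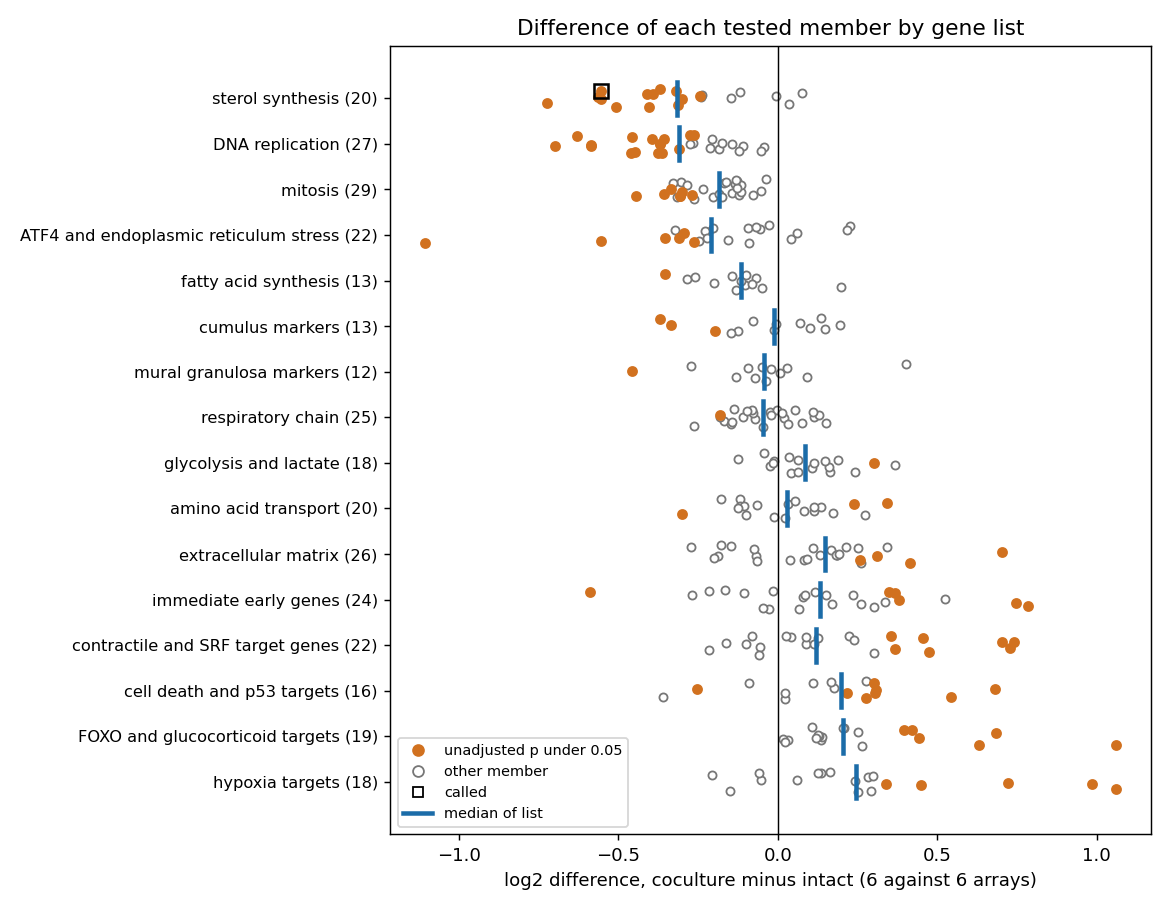
Log2 difference of coculture minus intact complexes (horizontal axis, 6 against 6 arrays) for each tested member of 16 gene lists, the number of members in brackets; orange points are members at an unadjusted p under 0.05, the square marks a called member and blue bars are list medians. Sterol synthesis (median -0.32) and DNA replication (-0.31) lie furthest to the left and hypoxia targets (0.25) furthest to the right.

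Genes of DNA replication had a median close to that of sterol synthesis, and genes of mitosis one nearer to 0. None of the 27 tested DNA replication genes was called. At an unadjusted p under 0.05, 16 were lower (59.3%, against 4.91% of all tested genes) and none higher. All 27 means lay below 0 (47.3% of all tested genes did), with a median of -0.31. Rfc4 and Rfc3 are subunits of the clamp loader that places the sliding clamp on DNA. Rfc4 read 8.52, 8.39 and 8.38 in intact complexes and 7.25, 7.49 and 8.15 in cocultures without estrogen, and 8.34, 8.48 and 8.40 against 7.98, 7.65 and 7.80 with it. The arms stood apart, and the coculture array nearest to the intact ones was replicate 3 without estrogen.

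The replicative helicase subunit gene Mcm5 lay at 10.63 to 10.99 in cocultures and 11.09 to 11.48 in intact complexes (difference -0.46, adjusted p = 0.114). Prim1, the DNA primase subunit gene, lay at 8.23 to 8.70 against 8.74 to 9.03 (-0.45, adjusted p = 0.114). For these 4 of 27 genes the arms did not overlap, as for 37 of all tested genes in this direction (0.302%). Oocyte-free complexes lay below intact ones by a list median of -1.76. The mean level of the replication genes on coculture replicate 3 without estrogen, 9.36, was within the range of intact complexes (9.17 to 9.44), while the other 5 cocultures lay at 8.85 to 9.01.

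The 29 mitosis genes had a median of -0.18. None was called, and 7 were lower at an unadjusted p under 0.05 (24.1%, against 4.91% of all tested genes). All 29 means lay below 0 (47.3% of all tested genes did). Birc5, which encodes survivin, differed by -0.45 ± 0.114 (adjusted p = 0.147), and Mki67, the proliferation marker, was higher than in oocyte-free complexes on every coculture array, at 9.52 to 10.03 against 5.61 to 8.15. Without both cocultures of highest 3' to 5' difference, 3 of the mitosis genes (10.3%) remained lower at an unadjusted p under 0.05. The replication genes numbered 13 (48.1%), and 8.01% of all tested genes were lower in that fit. Over single arrays left out, the range was 12 to 19 for replication. For mitosis it was 3 to 11, with 3 without coculture replicate 2 or, with estrogen, coculture replicate 1 or intact replicate 3, with 4 without intact replicate 3 and with 11 without coculture replicate 3. The mitosis median was -0.09 without both cocultures of highest 3' to 5' difference. The element TTTGAA of the cell cycle homology region, known from mitotic promoters, was searched on both strands. It was found at 18 of the 24 mitosis genes with a RefSeq promoter (75%), against 20.2% of all genes. That count uses no array value, so it does not bear on the culture difference.

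**Figure D3:**
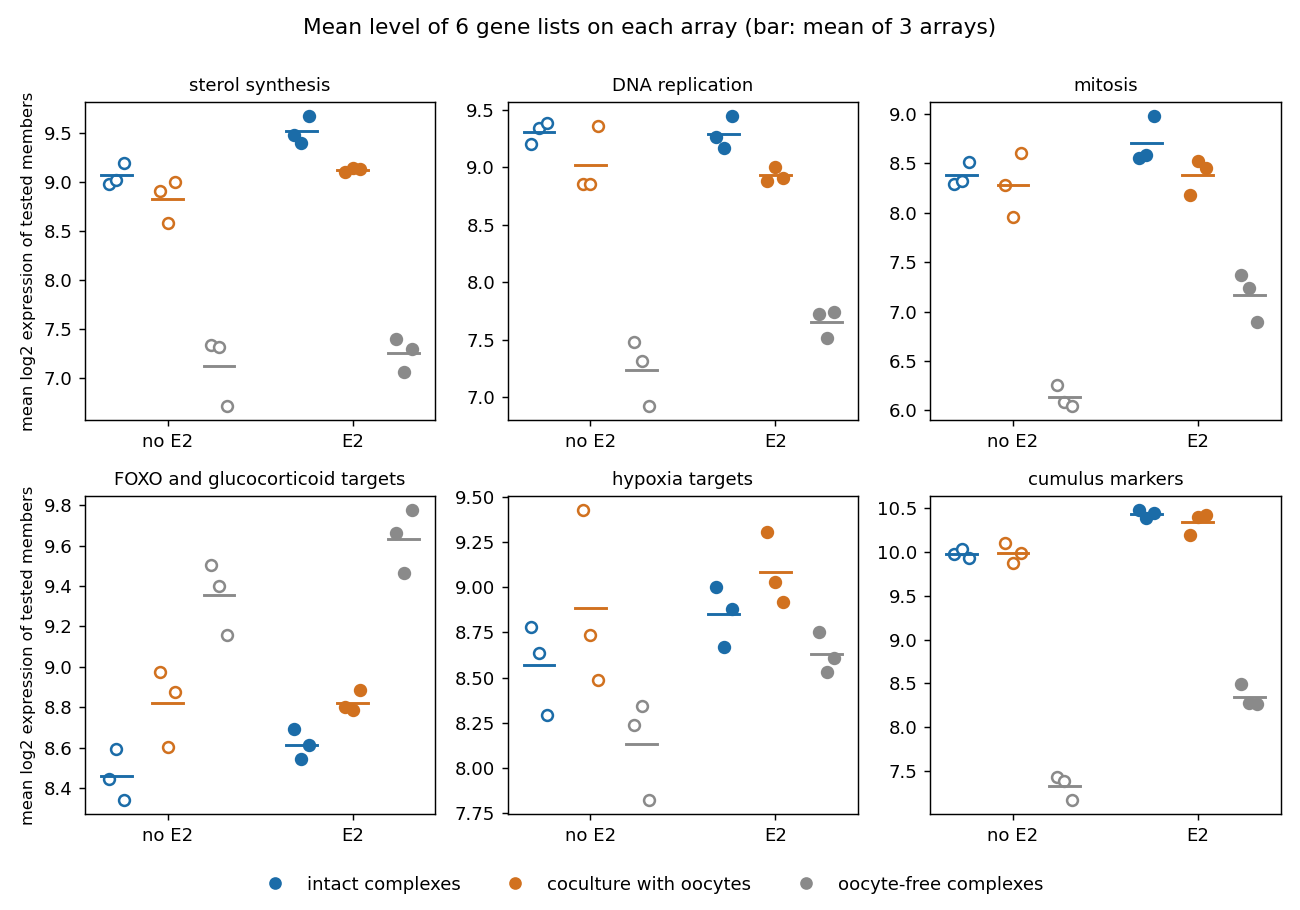
Mean log2 expression of the tested members of 6 gene lists (vertical axes, each with its own range) on every array, with intact complexes in blue, cocultures in orange and oocyte-free complexes in grey, open without and filled with estrogen (E2); bars are means of 3 arrays. With estrogen the sterol genes stand at 9.11 to 9.15 in cocultures and 9.40 to 9.67 in intact complexes, and cumulus markers overlap between these arms.

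In the other direction lay targets of FOXO factors and of the glucocorticoid receptor, genes that cells express when growth factor signalling through phosphoinositide 3-kinase is low or when steroid hormones of the stress response act. All 19 means lay above 0 (52.7% of all tested genes did), with a median of 0.20. At an unadjusted p under 0.05, 6 were higher (31.6%, against 6.5% of all tested genes), and none was called. Pik3ip1 read 9.14, 9.24 and 8.96 in intact complexes and 10.04, 9.5 and 9.83 in cocultures without estrogen, and 8.90, 8.52 and 8.45 against 9.21, 8.98 and 9.44 with it. Ccng2, an unusual cyclin that slows the cell cycle, differed by 0.68 ± 0.149 (adjusted p = 0.114), and Txnip, which restrains glucose uptake, by 0.44 ± 0.130 (adjusted p = 0.196). In oocyte-free complexes the list median was 0.87 above intact ones. The count of 6 ranged from 6 to 8 when 1 array was left out, and the median was 0.13 without coculture replicate 3.

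Hypoxia targets had a median of 0.25. At an unadjusted p under 0.05, 5 of 18 were higher (27.8%, against 6.5% of all tested genes), and none was called. The count was 3 and the median 0.11 without coculture replicate 1, and the count was also 3 without intact replicate 3 or, with estrogen, without replicate 2 of either culture type. Ddit4, an inhibitor of the growth kinase mTOR that is induced by low oxygen, glucocorticoids and FOXO factors and stands on both lists, read 10.28, 9.64 and 9.07 in intact complexes and 10.83, 9.91 and 10.06 in cocultures without estrogen. With estrogen it read 8.48, 8.15 and 7.85 against 10.01, 9.93 and 9.09. The groups overlapped without estrogen and stood apart with it, and the difference over both states was 1.06 ± 0.255 (adjusted p = 0.123). Ankrd37 (0.72, adjusted p = 0.234), Kdm3a, a histone demethylase gene (0.45, adjusted p = 0.131), and Mxi1, an antagonist of MYC (0.34, adjusted p = 0.409), lay the same way. Vegfa, the best known target, differed by -0.15 (adjusted p = 0.89) and is named for its role.

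In oocyte-free complexes the median of the hypoxia targets was -0.65 against intact complexes, on the other side of 0 from the coculture median. The coculture arrays spread widely, with mean levels of 8.49 to 9.43 without estrogen, and overlapped the intact complexes in both states. The hypoxia response element, searched as ACGTGC on both strands, was found at 10 of the 17 genes with a RefSeq promoter (58.8%), against 6.68% of all genes. The FOXO site TGTTTAC was found at 3 of 19 of the FOXO and glucocorticoid targets (15.8%, against 4.05%). Neither count uses an array value, so neither bears on the culture difference. The 250 bases before the start of the members Ddit4 and Ankrd37 are given at chr10:59951771-59952020 (minus strand) and chr8:45999851-46000100 (minus strand) (RefSeq, GRCm38.p6), with the element in capitals.
Ddit4: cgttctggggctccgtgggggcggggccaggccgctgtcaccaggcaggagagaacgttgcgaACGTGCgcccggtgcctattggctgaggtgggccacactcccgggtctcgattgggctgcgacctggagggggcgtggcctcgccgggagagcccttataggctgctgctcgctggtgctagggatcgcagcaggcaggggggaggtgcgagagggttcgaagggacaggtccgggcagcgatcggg
Ankrd37: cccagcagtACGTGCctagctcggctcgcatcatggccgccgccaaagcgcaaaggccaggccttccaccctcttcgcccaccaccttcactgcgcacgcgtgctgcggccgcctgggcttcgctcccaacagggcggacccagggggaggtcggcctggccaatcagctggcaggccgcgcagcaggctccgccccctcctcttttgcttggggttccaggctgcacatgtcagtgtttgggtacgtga

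In lists of stress, contractile, matrix and cell death genes no member was called. Of 22 genes of the ATF4 and endoplasmic reticulum stress pathways, 6 were lower at an unadjusted p under 0.05 (27.3%, against 4.91% of all tested genes). The median was -0.21. Leaving out 1 array gave 3 to 9, with 3 without coculture replicate 2 or intact replicate 3 with estrogen. Chac1, a glutathione-degrading enzyme gene and ATF4 target, read 9.32, 8.47 and 9.27 in intact complexes and 8.11, 6.92 and 8.97 in cocultures without estrogen, and 9.23, 8.83 and 8.97 against 7.89, 7.72 and 7.85 with it. The arrays overlapped without estrogen and stood apart with it (difference -1.1 ± 0.261, adjusted p = 0.118). Trib3, a pseudokinase gene of the same response, differed by -0.56 ± 0.130 (adjusted p = 0.118).

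Of 22 contractile genes and targets of serum response factor, 7 were higher at an unadjusted p under 0.05 (31.8%, against 6.5% of all tested genes). The median was 0.12. Ccn2, a matricellular protein gene, differed by 0.70 ± 0.161 (adjusted p = 0.114) and Acta2, smooth muscle actin, by 0.73 ± 0.198 (adjusted p = 0.168). Of 26 extracellular matrix genes, 4 were higher at an unadjusted p under 0.05 (15.4%, against 6.5% of all tested genes). None was lower, and the median was 0.15. The collagen gene Col5a2 read 5.54, 6.11 and 5.82 against 6.94, 6.93 and 6.49 without and 5.82, 5.80 and 5.89 against 6.53, 5.95 and 6.35 with estrogen (0.70 ± 0.143, adjusted p = 0.0917). Of 16 cell death and p53 target genes, 7 were higher at an unadjusted p under 0.05 (43.8%, against 6.5% of all tested genes). Of these 16, 1 was lower (6.25%, against 4.91%), and the median was 0.20. The list includes the BH3-only gene Bmf (0.68, adjusted p = 0.298) and Gadd45b (0.54, adjusted p = 0.259). Leaving out 1 array gave 5 to 9 higher contractile and 5 to 8 higher cell death genes. Without an estrogen term the numbers were 1 and 2 (3.8% of all tested genes). Leaving out set 1 or set 3 of the title numbers left 2 higher cell death genes (3.22% of all tested genes). Of 24 immediate early genes, 5 were higher (20.8%, against 6.5% of all tested genes) and 1 lower (4.17%, against 4.91%). Ier3 was at 0.78 (adjusted p = 0.114) and Klf2, a flow-responsive Krüppel-like factor, at -0.59 (adjusted p = 0.142). The cyclic AMP response element TGACGTCA was found at 3 of the 20 with a RefSeq promoter (15%, against 2.03% of all genes).

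Glycolysis, amino acid transport and cell contact, which are known to link cumulus cells and oocyte, had list medians near 0. Of 18 glycolysis and lactate genes, 1 was higher at an unadjusted p under 0.05 (5.56%, against 6.5% of all tested genes), the hexokinase gene Hk2 (0.30, adjusted p = 0.257). The median was 0.09, against -1.11 in oocyte-free complexes. Of 20 amino acid transporters, 2 were higher (10%, against 6.5% of all tested genes) and 1 lower (5%, against 4.91%). The median was 0.03, against -0.71 in oocyte-free complexes. Named for its role, Slc38a3, an amino acid transporter and cumulus marker, differed by 0.14, with a 95% interval of -0.13 to 0.40. Gja1, named likewise as the connexin of gap junctions between cumulus cells, differed by 0.01 (-0.15 to 0.17), and Msn, the membrane linker moesin, by 0.46 ± 0.114 (adjusted p = 0.132).

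Mean levels of the marker lists overlapped between cocultures and intact complexes over the 6 arrays of each. The 13 tested cumulus markers had mean levels of 9.93 to 10.48 in intact complexes and 9.88 to 10.43 in cocultures, against 7.17 to 8.49 in oocyte-free complexes. Of these markers 3 were lower at an unadjusted p under 0.05 (23.1%, against 4.91% of all tested genes), none higher. The markers Cyp51 (-0.37) and Ube2c (-0.33) also stand on the sterol and mitosis lists, so the cumulus markers are not independent of those lists. Mural granulosa markers had a median difference of -0.04. Of the 12 tested, 1 was lower (8.33%, against 4.91%), the steroidogenic cytochrome gene Cyp11a1 (-0.46, adjusted p = 0.305). With estrogen the mean levels of these 12 did not overlap, at 9.13 to 9.15 in cocultures and 9.17 to 9.38 in intact complexes. Theca and stroma markers ranged from 5.55 to 6.05 in cocultures and 5.58 to 5.96 in intact complexes over 13 genes, and the 15 endothelial and blood cell markers from 4.33 to 4.57 and 4.40 to 4.52, with 2 of them above the filter on low values. Of 25 oocyte markers, 19 did not pass that filter. The mean level of the 25 ran from 4.63 to 5.17 in cocultures, 4.74 to 4.89 in intact complexes and 4.49 to 5.06 in oocyte-free ones, with overlap. The highest coculture value was that of replicate 2 without estrogen, the array of the other array series. Of the 6 markers that passed, 1 was called lower in oocyte-free than in intact complexes, and the median of the 6 was -0.02. The mean level of these 6 was 6.28 to 7.16 in cocultures and 6.48 to 6.72 in intact complexes. In oocyte-free complexes it was 5.75 to 6.35, without overlap with the intact ones. Bcl2l10, a survival gene abundant in oocytes, was at 7.93 to 8.99 in cocultures, 8.09 to 8.90 in intact complexes and 3.78 to 5.25 in oocyte-free ones. Gdf9 was at 6.75 to 7.16, 6.77 to 6.90 and 6.61 to 7.19 in the same order. Whether RNA of oocytes contributed to the differences above was not tested.

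**Figure D4:**
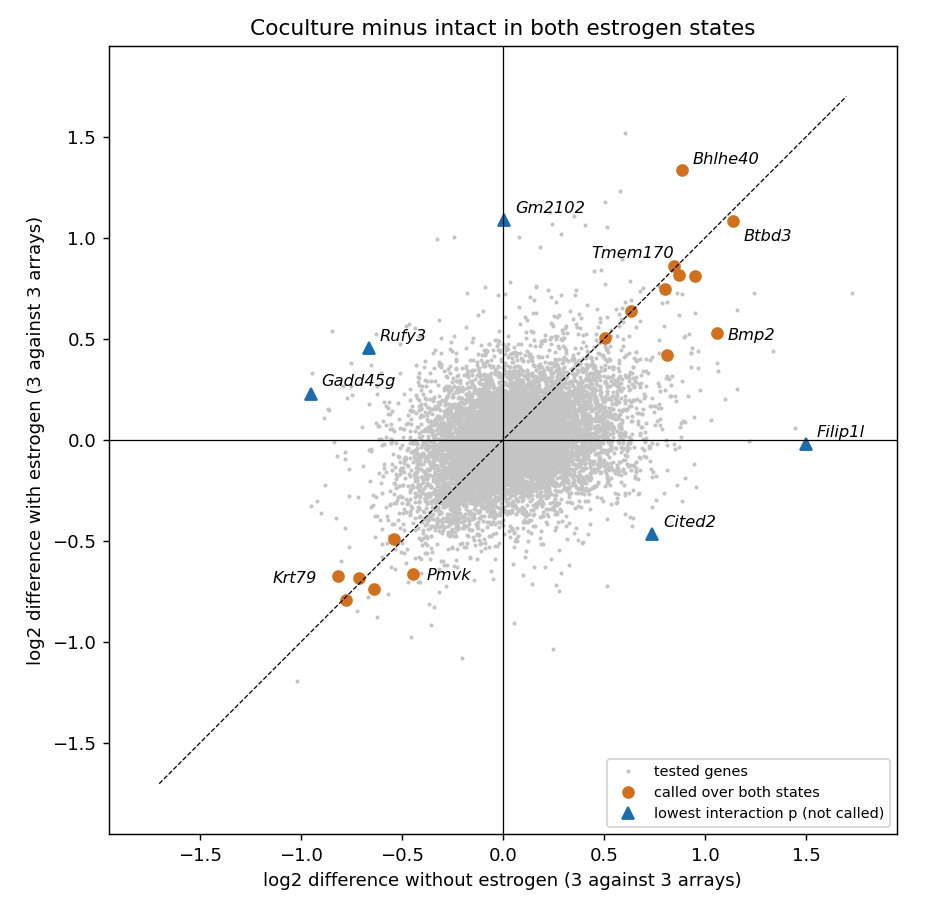
Log2 difference of coculture minus intact complexes without estrogen (horizontal axis) and with estrogen (vertical axis), 3 against 3 arrays each, for all tested genes (grey), the 16 called over both states (orange) and the 5 of lowest interaction p (blue, not called); the dashed line marks equal differences. The orange points share a sign in both states, which the call over both states favours, and 59.4% of all tested genes do so. Tmem170 lies near the line at 0.85 and 0.86, Bmp2 further off at 1.06 and 0.53, and Filip1l on the horizontal axis at 1.5 and -0.02.

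The difference between cocultures and intact complexes was next taken within each estrogen state. Without estrogen 3 genes were called (0.0245%), all higher in cocultures and each with an adjusted p of 0.0355: Filip1l, a filamin-interacting protein gene, at 1.5, the chromatin organiser Satb1 at 1.1 and Bmp2 at 1.06. At an unadjusted p under 0.05 there were 1254 genes (10.2%). Of the other probe sets of Satb1, the brightest showed 0.05 over both states, and the rest -0.31, 0.38 and -0.04, against 0.65 for the one used. With estrogen limma called 0 genes, and 610 (4.98%) passed an unadjusted p under 0.05. Intact complexes and cocultures of the same title number deviated together in this state (r of 0.16 to 0.31 in 3 of 3 pairs), and with the number as a block over the 12 arrays limma called 1 gene, Ddit4 (1.52 ± 0.182, adjusted p = 0.046, against 0.334 without the block). The number called without estrogen ranged from 0 to 105 over single arrays left out, the highest without coculture replicate 2, 9 without intact replicate 2, 1 without replicate 3 of intact complexes or replicate 2 of cocultures with estrogen, and 0 without any of the other 8. With estrogen the range was 0 to 1, with 1 without coculture replicate 2.

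The states share no array. Across the 12252 genes their differences had a Pearson r of 0.33 and a Spearman rho of 0.30, which describes genes and not replicates. Of the 1254 genes of the first state, 906 (72.2%) had the same sign in the other, and of the 610 genes of the second, 489 (80.2%), where 59.4% of all tested genes did. Of 157 genes at an unadjusted p under 0.05 in both states, 150 had the same sign.

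A test of the difference between the states called 0 genes in limma, and 467 genes (3.81%) passed an unadjusted p under 0.05. Filip1l read 5.82, 6.31 and 6.01 in intact complexes and 7.77, 6.97 and 7.90 in cocultures without estrogen, but 5.36, 5.40 and 5.42 against 5.43, 5.20 and 5.49 with it. The groups stood apart only in the first state, and the difference of the differences was -1.52. Gm2102 showed the reverse: 8.66, 8.64 and 8.34 against 8.85, 8.15 and 8.66 without and 6.16, 6.22 and 6.06 against 7.30, 7.38 and 7.02 with estrogen. Gadd45g, a stress-inducible growth arrest gene, lay lower in cocultures without estrogen (8.48 to 9.04 against 9.66 to 9.82) and overlapped with it (9.82 to 10.07 against 9.48 to 9.92). Of the lists, extracellular matrix had 5 of 26 members at an unadjusted interaction p under 0.05, cell death and p53 targets 3 of 16, sterol synthesis 3 of 20, the ATF4 list 3 of 22 and immediate early genes 3 of 24. Replication genes had 1 of 27 and hypoxia targets and mitosis genes 0 of 18 and 0 of 29.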

How the data were processed

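Per the submitters' processing notes, the authors made the deposited log2 values with RMA in Affymetrix Expression Console 1.1. RMA quantile-normalizes arrays, so a shift of most transcripts would not show, and low values are compressed. The number of arrays limits the precision. Of 45101 probe sets (64 controls), 34945 had 1 gene symbol, 932 several and 9160 none. A RefSeq table updated 34741 symbols. The brightest probe set stood for each of 18193 genes. Genes above the array median on at least 3 of 18 arrays were tested (12252). limma 3.58.1 in R 4.3.3 fitted 12 arrays with estrogen and culture type as terms, or 4 group means for single states and the interaction. Oocyte-free values came from 6 group means over 18 arrays. P-values are two-sided, Benjamini-Hochberg adjusted over all tested genes, with calls under 0.05. The script was tested on simulated data.

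Named genes were the called genes, those of lowest p that filled each direction up to 12, up to 4 per list of lowest p, the 5 of lowest interaction p and the 3 of lowest p per state. Others are marked as named for their role or as markers. The samples, lists and motifs were chosen with earlier results of these data known. Alternatives covered the samples, replicate block, array weights, normalization, filter, probe sets, prior variance, RNA quality and estrogen term. Title numbers were checked as pairs by the correlation of deviations from group means. All 3 same-number pairs of intact complexes and cocultures exceeded 0.1 with estrogen (0.164 to 0.309) and 0 of 3 without it (-0.283 to 0.065). Cocultures without and intact complexes with estrogen also did so in 3 of 3 pairs (0.178 to 0.383). Over all 4 groups 8 of 18 pairs did (-0.327 to 0.402). The labels do not say what the numbers mark, so the main fits used no block. The block given as an alternative covered both estrogen states together. The labels of 1 oocyte-free array disagreed, and its title was followed.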

Additional observations from a re-analysis of the deposited data

Results flagged for a closer look

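The difference between cocultures and intact complexes ran in opposite directions in the estrogen states for 2 of the named genes, with no overlap of the 3 arrays of either group in either state. Cited2, a transcriptional co-regulator, read 8.43, 8.65 and 8.12 in intact complexes and 9.11, 9.03 and 9.28 in cocultures without estrogen, and 7.74, 7.78 and 7.88 against 7.27, 7.55 and 7.19 with it. The difference changed by -1.20 with estrogen (limma's adjusted p = 0.756). Rufy3, a protein of neuronal polarity and vesicle transport, read 6.82, 6.74 and 6.90 against 5.96, 6.40 and 6.11 without and 6.41, 6.52 and 6.22 against 6.58, 7.15 and 6.78 with estrogen, a change of 1.12 (adjusted p = 0.87). Neither interaction was called. Each gene was read from a single probe set, and the other probe sets were not examined by estrogen state. For Rufy3 the next brightest had a mean of 6.515, against 6.549 for the one used. Both genes were named for their low interaction p, and that choice itself favours opposite and separate groups. How many of all tested genes show such opposite separation was not counted, so how unusual these 2 genes are was not assessed.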

How the results depend on the processing

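In the main comparison 16 genes were called. The number was 7 with all 18 arrays in the fit, 86 with array weights, 37 with the 3' to 5' difference as a covariate and 1 without an estrogen term. Chosen after seeing the data, it was 94 without both cocultures of highest 3' to 5' difference, and 0 without title number set 1 or set 3. Over single arrays left out it ran from 2 to 30. Centring each array on its median gave 8 higher and 10 lower in place of 10 and 6. The mean of all probe sets gave 24, of which 11 were among the 16. Without estrogen (3 called) the number was 1 with all 18 arrays, 39 with array weights, 7 after a second quantile normalization, 10 after centring, 0 without the filter or with a strict one and 5 with the covariate, and 0 to 105 over single arrays left out. With estrogen (0 called) it was 45 with array weights and 1 with the covariate, and 0 to 1 over single arrays left out. The interaction (0 called) gave 2 with array weights and 0 to 1 over single arrays left out. Title numbers as a replicate block gave 14 genes in the main comparison (10 of the 16), 6 without and 1 with estrogen, and the replicate block within array series 1 gave 11, 57 and 3. Single genes were followed through the planned settings only if named for a low p or rank, with Bcl2l10 and Gdf9 added. Of their values, 1 changed sign, that of Rufy3 (0.00074 without coculture replicate 1, and -0.24 to 0.00074 over single arrays left out). Another 187 fell short of the threshold they had passed, 51 passed one they had missed and 1889 kept both. Named genes near 0, such as Sqle and Gja1, were not followed, so the choice of genes itself makes changes of sign rare. The medians of sterol synthesis (-0.37 to -0.28), DNA replication, mitosis, FOXO and glucocorticoid targets and hypoxia targets kept their sign under all 28 settings. The cause of these shifts was not tested. No background levels were at hand, so what dim signal limits was not assessed.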

Other observations

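Among other groups no gene was called. Of 20 hormone and growth factor receptors, 2 were higher in cocultures at an unadjusted p under 0.05 (10%, against 6.5% of all tested genes): Acvr1b, an activin type I receptor (0.46, adjusted p = 0.202), and Tgfbr3, betaglycan (0.45, adjusted p = 0.27). Of 20 SMAD targets, 1 was higher, the inhibitory SMAD gene Smad7 (0.66, adjusted p = 0.17), and 2 were lower (10%, against 4.91% of all tested genes). The list median was 0.01. Smad7 read 9.05, 9.38 and 8.94 against 9.73, 9.24 and 9.13 without and 9.02, 8.68 and 8.46 against 9.64, 10.15 and 9.57 with estrogen, apart only in the second state.

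Of 18 estrogen response genes, 1 was lower at an unadjusted p under 0.05 (5.56%, against 4.91% of all tested genes), the signalling ligand gene Wnt4 (-0.42, adjusted p = 0.209). Of 20 antioxidant genes 4 were lower (20%, against 4.91% of all tested genes), among them Gclm of glutathione synthesis (-0.31, adjusted p = 0.289) and the metallothionein gene Mt2 (-0.43, adjusted p = 0.374). The list median was -0.07. Heat shock genes, genes of the natriuretic peptide and cyclic GMP pathway and ribosomal protein genes had 0 members at that level, of 13, 8 and 17 tested, and the respiratory chain had 1 of 25.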
